A study of Homo sapiens with 3 samples.

Results

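In HuCCT1 cells, 775 promoter peaks of Strawberry Notch 1 (SBNO1) had no TATA-box binding protein associated factor 4 (TAF4) peak on them. They were 4.80% of the 16147 SBNO1 peaks and 16.2% of the 4791 SBNO1 peaks near a promoter. The number depended on the peaks admitted. It was 2143 (44.7%) when TAF4 peaks below their median score were ignored, and 266 (11.7%) with SBNO1 peaks at or above their median score. It was 150 (5.86%) with SBNO1 peaks whose score times width divided by 1000 was at least 300. Scores are capped at 1000, so this last limit also left out capped peaks under 300 bp wide. The nearest genes of the 775 peaks numbered 745, or 3.78% of the 19689 protein-coding genes in the annotation. These SBNO1-only promoter peaks were selected on the called intervals themselves. Each shared no base with any interval in the TAF4 or the IgG list, and its nearest edge lay within 1 kb of the transcription start site (TSS) of a protein-coding transcript in GENCODE 44. The absence of TAF4, the absence of IgG and the closeness to a TSS are therefore the choice of the peaks and not results.

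Chromatin immunoprecipitation sequencing (ChIP-seq) had been carried out in HuCCT1, an established line from a cancer of the bile ducts (cholangiocarcinoma), with no treatment named. The antibodies were against SBNO1, against TAF4 and control IgG, with 1 library each. Each library was a pool of immunoprecipitates from several biological replicates according to the methods of the study, so all statements hold for 1 library per antibody in 1 cell line. The lists together held 30508 peaks, of which 12763 were from TAF4 and 1598 from IgG. They give intervals and a score but no read numbers, so that depth is unknown and a missing TAF4 peak means only that none was listed. No difference between antibodies could be tested, and 95% intervals below are exact Clopper-Pearson intervals for counting error alone. Of 7 biliary marker genes, 3 had an SBNO1 and 5 a TAF4 promoter peak, while none of the 5 hepatocyte markers had either and none of the 12 had an IgG promoter peak. Peak lists do not measure expression.

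TAF4 is a subunit of TFIID, the general transcription factor that recognises core promoters and helps to place RNA polymerase II at the start site. SBNO1 is a nuclear protein with helicase motifs whose fly homolog acts in Notch and EGFR signalling. Many human promoters, above all those of housekeeping genes, lie in CpG islands, stretches rich in G, C and the dinucleotide CpG, while other promoters and many enhancers lack them and often carry sites for inducible factors such as AP-1, the dimer of FOS and JUN proteins.

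The sequences below are examples from the SBNO1-only peaks. Each is a stretch of 100 bases inside the peak on GRCh38, written 5′ to 3′ on the strand of the gene. Capitals mark matches, on either strand, to any of 11 short motifs described further on. The stretch was chosen as the one with the most such matches outside annotated untranslated exons, so the presence of a motif in it is no finding. MRPS21 (chr1:150293761-150293860, plus strand), SMC2 (chr9:104094031-104094130, plus strand) and TRPC4AP (chr20:35092911-35093010, minus strand) stand for high-scoring peaks that cover the main TSS of a gene without any TAF4 promoter peak. Their capitals are an ETS, a KLF/SP and an RBPJ motif, respectively.
MRPS21: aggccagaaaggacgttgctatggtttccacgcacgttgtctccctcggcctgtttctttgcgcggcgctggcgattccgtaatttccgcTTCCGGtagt
SMC2: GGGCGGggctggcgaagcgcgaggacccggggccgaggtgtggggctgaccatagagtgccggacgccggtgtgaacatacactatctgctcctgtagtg
TRPC4AP: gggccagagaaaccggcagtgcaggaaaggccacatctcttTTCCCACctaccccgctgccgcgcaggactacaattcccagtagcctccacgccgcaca

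The second set shows examples among the highest-scoring SBNO1-only peaks with the AP-1 motif TGACTCA, whose reverse complement reads TGAGTCA. They are CAPN8 (chr1:223665789-223665888, minus strand), ANXA3 (chr4:78552518-78552617, plus strand) and AMPD3 (chr11:10454999-10455098, plus strand). ATTGG in CAPN8 and AMPD3 is the NFY motif CCAAT on the other strand, and CATTCC in ANXA3 is a TEAD motif.
CAPN8: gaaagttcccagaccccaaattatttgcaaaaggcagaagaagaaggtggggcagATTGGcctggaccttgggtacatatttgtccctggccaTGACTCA
ANXA3: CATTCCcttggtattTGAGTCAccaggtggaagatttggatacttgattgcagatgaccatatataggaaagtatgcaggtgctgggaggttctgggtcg
AMPD3: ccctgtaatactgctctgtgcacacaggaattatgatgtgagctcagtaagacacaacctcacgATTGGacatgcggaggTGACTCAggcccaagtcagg

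To describe where the SBNO1-only peaks lay, they were set beside the 3780 SBNO1 promoter peaks with TAF4, called shared peaks here. Peaks that overlapped IgG were left out of both, which left 4555 SBNO1 promoter peaks, and 17.0% of these (interval 15.9% to 18.1%) were SBNO1-only. The SBNO1-only peaks sat less squarely on start sites. A TSS was covered by 458 of them, or 59.1% (interval 55.5% to 62.6%), compared with 84.7% of shared peaks (interval 83.5% to 85.8%). The canonical TSS, the start of the transcript that the annotation names as representative of the gene, was within 1 kb in 69.2% (interval 65.8% to 72.4%) against 91.4% (interval 90.4% to 92.3%). The remaining 239 SBNO1-only peaks lay at alternative starts only.

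44.3% of the SBNO1-only peaks were centred in introns (interval 40.7% to 47.8%) and 31.9% between genes, whereas shared peaks were centred in introns in 29.8% and between genes in 43.3% of cases. Coding exons held 3.61% of SBNO1-only centres and untranslated exons 20.3%. A TSS of another gene on the opposite strand lay within 1 kb of 68 SBNO1-only peaks (8.77%, interval 6.88% to 11%), compared with 18.6% of shared peaks (interval 17.4% to 19.9%). Such divergent promoters serve a pair of genes from one regulatory stretch. The median centre lay 52.0 bp upstream of the TSS for SBNO1-only and 64.0 bp upstream for shared peaks. Read the other way, 42.3% of the 565 SBNO1 peaks at alternative starts only lacked TAF4 (interval 38.2% to 46.5%), against 13.4% of those at a canonical TSS.

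SBNO1-only peaks were lower and narrower than shared ones. The score is the authors' whole number, capped at 1000, and was used to rank peaks within a list. Its quartiles were 579, 729 and 963 in SBNO1-only peaks and 675, 863 and 1000 in shared peaks. The cap was reached by 167 SBNO1-only peaks (21.5%, interval 18.7% to 24.6%), compared with 33.2% of shared peaks (interval 31.7% to 34.8%). The width had quartiles of 260, 353 and 456 bp in the former and 324, 424 and 556 bp in the latter. Among SBNO1-only peaks, scores ran from 274 to 1000 and widths from 129 to 1293 bp. High scores went with narrow peaks, since the 167 at the cap had a median width of 221 bp and the 100 with a score of 500 or less one of 572 bp. The list ends at a smallest product of score and width, so a peak with a low score is listed only if wide. This order is therefore at least in part set by the list.

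The product of score and width divided by 1000, called area here, was about 200 in the smallest SBNO1 peak below the cap, where the list ends. The SBNO1-only peaks gathered near that end. Their area had quartiles of 218, 243 and 285 over 608 peaks below the cap, compared with 254, 317 and 417 over 2524 shared peaks. An area under 300 was found in 79.3% of the former (interval 75.8% to 82.4%) and 43.6% of the latter (interval 41.6% to 45.5%). Accordingly, TAF4 was missing at 36.7% of the 919 SBNO1 promoter peaks with an area below 250 (interval 33.5% to 39.9%) and at 3.19% of the 753 with an area of 400 or more (24 peaks, interval 2.05% to 4.71%). Peaks at the score cap are in none of these area classes. TAF4 was missing at 167 of the 1423 SBNO1 promoter peaks at the cap (11.7%, interval 10.1% to 13.5%). A TAF4 signal too low to be listed and no TAF4 at all cannot be told apart in these lists.

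The share without TAF4 also differed by CpG class at a given area. Peaks were called CpG rich when the 200 bp at their centre had a GC content of at least 50% and a ratio of observed to expected CpG of at least 0.6. Below an area of 250, TAF4 was missing at 59.3% of CpG-poor peaks (176 of 297, interval 53.4% to 64.9%) and 25.9% of CpG-rich ones (interval 22.5% to 29.5%). With an area of 400 or more, the shares were 8.09% (19 of 235, interval 4.94% to 12.3%) and 0.965% (5 of 518, interval 0.314% to 2.24%). In all 4 area classes the intervals of CpG-rich and CpG-poor peaks were apart.

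**Figure D1:**
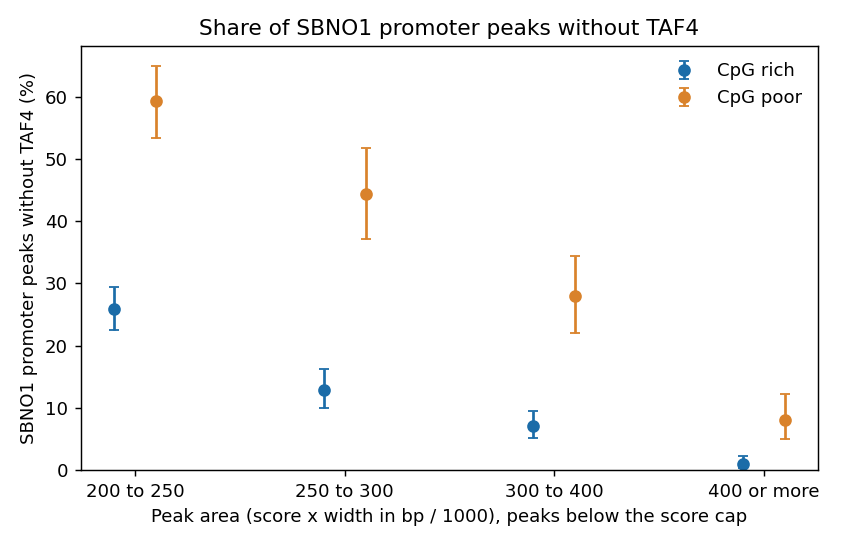
Share of SBNO1 promoter peaks without TAF4 (%) by area of the SBNO1 peak (score times width divided by 1000, peaks below the score cap), separately for CpG-rich and CpG-poor peaks, with exact 95% intervals as error bars. The share falls from 59.3% to 8.09% in CpG-poor and from 25.9% to 0.965% in CpG-rich peaks.

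The distance to TAF4 was then examined, since a peak without overlap can still lie next to TAF4. The gap from a SBNO1-only peak to the nearest TAF4 peak had quartiles of 5929, 31226 and 100034 bp and ran from 3 to 3278249 bp. It was at most 1 kb for 107 peaks (13.8%), at most 10 kb for 226 (29.2%, interval 26.0% to 32.5%) and over 100 kb for 194 (25%). Peaks within 1 kb of TAF4 covered a TSS in 24.3% of cases, and those over 100 kb away in 69.6%. The first thus lay mostly beside a start site, and the second mostly on one. A TSS was covered by 83.8% of the TAF4 promoter peaks without SBNO1, and the selection keeps SBNO1-only peaks off TAF4 peaks. This contrast is therefore at least in part set by the choice of the peaks. CpG-poor peaks had TAF4 within 10 kb more often (35.3%, interval 30.7% to 40.1%) than CpG-rich ones (22.2%, interval 18% to 26.8%). CpG-poor peaks also covered a TSS less often, and the part of the selection in this difference was not tested. Another SBNO1 peak lay within 10 kb of 268 SBNO1-only peaks (34.6%).

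**Figure D2:**
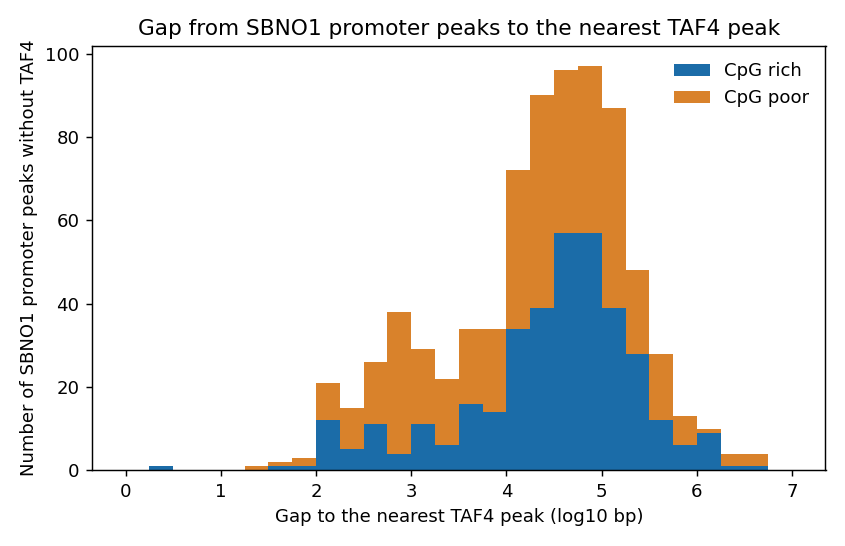
Number of SBNO1-only promoter peaks by the gap from the peak edge to the nearest TAF4 peak (bp, log axis), for CpG-rich and CpG-poor peaks. The median gap was 40982 bp for CpG-rich and 22299 bp for CpG-poor peaks.

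At the level of genes, 544 of the 745 (73.0%, interval 69.7% to 76.2%) had no TAF4 peak within 1 kb of any of their start sites. Since the peaks were selected for lacking TAF4, nothing is read from this share beside the 68.1% of all protein-coding genes. The other 201 genes carried TAF4 within 1 kb of one of their start sites, and 144 of the 745 also had a shared peak. Of the peaks at a canonical TSS, 81.0% belonged to a gene without TAF4, compared with 55.6% of those at alternative starts only. The selection keeps TAF4 off the peak itself, and a peak at an alternative start leaves the canonical TSS free for TAF4. This contrast is therefore at least in part set by the choice of the peaks. The canonical TSS was covered by 320 peaks, and for 269 of these the gene had no TAF4 promoter peak and none lay within 10 kb. These 269 are the clearest cases of a start site with SBNO1 and without listed TAF4.

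The limits of the selection are shown by single peaks. Just inside 1 kb lay MAST4 (edge 999 bp from the TSS, score 398) and D2HGDH (986 bp, score 904), and just outside RALB (1011 bp, score 934) and RFX7 (1014 bp, score 958). The selected peak nearest to TAF4 was at PLK3, 3 bp away with a score of 1000, followed by ZNG1C at 29 bp with a score of 458. The smallest overlaps that kept a peak out were 32 bp at ENSG00000289694 (score 1000) and 47 bp at POLG2 (score 299).

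SBNO1-only promoters had less GC and CpG than shared ones and varied more. GC content had quartiles of 49.0%, 58.5% and 66.0%, compared with 57%, 63.0% and 68.5% in shared peaks. The ratio of observed to expected CpG had a median of 0.628 against 0.833. CpG-rich peaks made up 46.6% of the SBNO1-only peaks (361, interval 43.0% to 50.2%) and 77.3% of the shared peaks (interval 75.9% to 78.6%). TAF4 promoter peaks without SBNO1, 2037 in number, were CpG rich in 83.0% of cases (interval 81.3% to 84.6%). The 5671 SBNO1 peaks without TAF4 away from promoters were so in 2.38%, and the SBNO1-only promoters lay between these sets.

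The 361 CpG-rich and 414 CpG-poor SBNO1-only peaks differed in position. CpG-rich peaks were at a canonical TSS in 91.7% of cases and covered a TSS in 78.7% (interval 74.1% to 82.8%). CpG-poor peaks were at a canonical TSS in 49.5% and covered a TSS in 42.0% (interval 37.2% to 46.9%), and 60.6% were centred in introns. Their genes lacked TAF4 in 84.8% and 63.0% of peaks, respectively. Because the selection keeps TAF4 off the peak itself and CpG-rich peaks lay more often on start sites, this contrast is at least in part set by it. The median score was 772 in CpG-rich and 702 in CpG-poor peaks. Among all SBNO1 promoter peaks, TAF4 was missing at 11% of CpG-rich (interval 9.95% to 12.1%) and 32.5% of CpG-poor ones (interval 30.0% to 35.2%).

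Short motifs were searched as exact matches on both strands in the 200 bp at the peak centre, with all protein-coding TSS windows of the same length as background. The AP-1 motif TGACTCA was found in 107 SBNO1-only peaks (13.8%, interval 11.5% to 16.4%), in 5.90% of shared peaks (interval 5.17% to 6.70%) and in 2.44% of all TSS windows. It was most common in SBNO1 peaks without TAF4 away from promoters, at 40.3%. The TEAD motif GGAATG, bound by the partners of YAP1, was in 14.5% of SBNO1-only peaks (interval 12.1% to 17.1%), 9.39% of shared peaks (interval 8.48% to 10.4%) and 7.81% of TSS windows. Both motifs were thus more frequent at SBNO1-only than at shared promoters. TEAD was in 8.31% of CpG-rich SBNO1-only peaks (interval 5.68% to 11.7%) and 19.8% of CpG-poor ones (interval 16.1% to 24.0%). The part of CpG class in the TEAD difference from shared peaks was not tested.

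Motifs of factors that act at many constitutive promoters showed the opposite order. CCAAT, bound by NFY, was in 22.7% of SBNO1-only (interval 19.8% to 25.8%) and 33.8% of shared peaks (interval 32.3% to 35.3%), with 23.1% in all TSS windows. GGGCGG, bound by KLF and SP factors, was in 36.8% (interval 33.4% to 40.3%) and 56.7% (interval 55.1% to 58.3%), with 43.5% in the background. When the background was weighted to the GC content of the peaks, it held GGGCGG in 32.2%, so that SBNO1-only peaks had 0.845 times the share of all TSS windows but 1.14 times that of windows of like GC. The ETS motif CCGGAA was in 19.4% of SBNO1-only (interval 16.6% to 22.3%) and 26.5% of shared peaks (interval 25.1% to 27.9%), with 15.5% in all TSS windows.

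The other motifs differed by fewer percentage points. TATAAA, a form of the TATA box, was in 5.94% of SBNO1-only peaks (interval 4.38% to 7.84%), 3.78% of shared peaks (interval 3.20% to 4.44%) and 5.71% of TSS windows. CACGTG, the E-box, was in 5.55% (interval 4.04% to 7.40%) and 7.86%, with 5.14% in the background. GGGGAGGG, bound by ZNF148 and ZNF281, was in 9.16% and 10.2%, with 10.2% in the background. GTGGGAA, bound by RBPJ of the Notch pathway, was in 4.52% and 4.97%, with 3.63% in the background. TGACGTCA, bound by CREB and ATF factors, was in 2.71% and 2.78% against 1.5%, and AAGATGGC, bound by YY1, in 3.61% and 5.32% against 3.01%. A match describes the letters in the window and not the binding of a factor.

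Because motifs follow base composition, the AP-1, ETS, NFY and KLF/SP motifs were compared again within CpG classes. In CpG-poor peaks AP-1 was at 22.5% of SBNO1-only (interval 18.5% to 26.8%) and 19.0% of shared peaks (interval 16.4% to 21.8%), and in CpG-rich peaks at 3.88% (interval 2.14% to 6.42%) and 2.05% (interval 1.57% to 2.64%). AP-1 was thus somewhat higher in SBNO1-only peaks of both classes, by less than over all peaks in percentage points, and the intervals overlap. ETS motifs were in 31.3% (interval 26.6% to 36.4%) against 30.9% (interval 29.2% to 32.6%) of CpG-rich peaks and 8.94% (interval 6.37% to 12.1%) against 11.5% (interval 9.47% to 13.9%) of CpG-poor peaks, so their lower share over all SBNO1-only peaks was not seen in the CpG-rich class. The lower NFY share remained apart in both classes. It was 21.3% (interval 17.2% to 25.9%) against 34.2% (interval 32.5% to 36.0%) in CpG-rich peaks and 23.9% (interval 19.9% to 28.3%) against 32.4% (interval 29.2% to 35.6%) in CpG-poor peaks. GGGCGG was lower in CpG-poor SBNO1-only peaks, with 16.9% (interval 13.4% to 20.9%) against 27.5% (interval 24.5% to 30.6%), whereas in CpG-rich peaks the intervals met (59.6%, interval 54.3% to 64.7%, against 65.3%, interval 63.5% to 67.0%).

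Since SBNO1-only peaks had small areas, the sets were also compared among peaks with an area under 300 only, 482 SBNO1-only and 1100 shared. The order of the shares was as before. AP-1 was at 12.7% (interval 9.82% to 16.0%) against 6.09% (interval 4.75% to 7.67%) and NFY at 22.2% (interval 18.6% to 26.2%) against 36.5% (interval 33.6% to 39.4%). For ETS the intervals overlapped, with 17.6% (interval 14.3% to 21.3%) against 22.5%. CpG-rich peaks were 46.1% (interval 41.5% to 50.6%) against 79.5% (interval 76.9% to 81.8%), and a TSS was covered by 56.2% (interval 51.7% to 60.7%) against 81.6% (interval 79.2% to 83.9%). The part of unlisted low TAF4 signal in these differences was not tested.

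The 107 SBNO1-only peaks with AP-1 were themselves a CpG-poor group, with 13.1% CpG rich and a median score of 824. They covered a TSS in 47.7% of cases, and a TEAD motif was present in 22.4%. At alternative starts only, AP-1 was in 23.8% of the SBNO1-only peaks (interval 18.6% to 29.8%) and 27.9% of the shared peaks (interval 23.1% to 33.1%). At canonical starts it was in 9.33% (interval 7.0% to 12.1%) and 3.82% (interval 3.21% to 4.52%). SBNO1-only peaks at the score cap held the ETS motif in 28.1% (interval 21.5% to 35.6%). Those with a score of 500 or less held it in 15.0% (interval 8.65% to 23.5%), and the intervals overlap. CpG-rich peaks were 55.7% of the former and 32.0% of the latter, and the part of CpG class was not tested.

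The highest-scoring SBNO1-only peaks, all at the cap and ordered by width, lay at TMCC1, KAZALD1, ANXA3, MRPS21, SMC2, TRPC4AP, ACTB, CAPN8, RACGAP1 and C6orf89. The widest was an intronic peak of 697 bp at an alternative start of TMCC1, an endoplasmic reticulum membrane protein (chr3:129794532-129795228), 98463 bp from TAF4, and this gene had TAF4 at another start. The peak at KAZALD1, a secreted protein, was 549 bp wide and lay 780 bp from the TSS (chr10:101060661-101061209). ANXA3, a calcium-dependent phospholipid-binding annexin, had a peak of 437 bp with an AP-1 motif (chr4:78552401-78552837). Its edge lay 434 bp downstream of the nearest TSS, with TAF4 7805 bp away. The peak of 405 bp at ACTB, cytoplasmic actin, covered an alternative start (chr7:5529688-5530092), with the canonical TSS 509 bp and a TAF4 peak 344 bp away, and the gene had a TAF4 promoter peak.

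Several of these peaks covered the canonical TSS of a gene without any TAF4 promoter peak. At MRPS21, a protein of the small mitochondrial ribosomal subunit, the peak of 424 bp (chr1:150293711-150294134) was centred 3 bp from the TSS, with TAF4 24349 bp away. At SMC2, an ATPase of condensin, the peak of 415 bp (chr9:104093955-104094369) had its nearest TAF4 peak at 778875 bp, and its central window had a GC content of 57% and held none of the motifs. TRPC4AP, a protein that associates with the TRPC4 channel, had a peak of 412 bp (chr20:35092755-35093166) with TAF4 136735 bp away. These are the promoters of the first set of sequences.

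RACGAP1, which acts in cytokinesis, had a peak of 379 bp (chr12:50025381-50025759) with NFY and TEAD motifs. C6orf89 had one of 368 bp (chr6:36885696-36886063) with KLF/SP and ETS motifs, EIF1B, a translation initiation factor, one of 331 bp (chr3:40309511-40309841) with ETS and E-box motifs, and CEP152, a centrosomal protein, one of 321 bp (chr15:48811060-48811380) with KLF/SP and NFY motifs. In this group the nearest TAF4 peak was between 10358 bp (C6orf89) and 344178 bp (CEP152) away. The GC content of the 4 windows ran from 53% at RACGAP1 to 67.5% at EIF1B.

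Other named peaks carried the AP-1 motif. CAPN8, a calpain protease, had a peak of 398 bp (chr1:223665652-223666049) over its TSS with a GC content of 51.5% and a CpG ratio of 0.08. ARL14EPL had one of 328 bp (chr5:116032230-116032557) with a GC content of 46.0%, and AMPD3, an AMP deaminase, one of 301 bp (chr11:10454899-10455199) with its edge 65 bp from the TSS. None of these 3 genes had a TAF4 promoter peak, and TAF4 was between 10196 bp (CAPN8) and 52578 bp (ARL14EPL) away.

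More than 1 SBNO1-only peak was found at 28 genes, with at most 3. MEF2C, a MADS-box transcription factor, had 3, with scores of 442, 1000 and 299, and TAF4 lay far off at distances of 515975, 516649 and 430116 bp. ETV4, an ETS factor of the PEA3 group, also had 3. A narrow one of 195 bp (score 1000) lay 826 bp from an internal start and 34809 bp from TAF4. One of 300 bp (score 747), 33040 bp from TAF4, covered a TSS and lay within 1 kb of a canonical TSS. One of 606 bp (score 369) near the outermost start was 315 bp from TAF4. ANXA2R, ATF7IP, a partner of the histone methyltransferase SETDB1, and DIAPH1, an actin-nucleating formin, had 2 each. Their peaks at the cap were 229, 203 and 166 bp wide.

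Gene lists were read against the 3.78% of all protein-coding genes. For 1 of 25 lists, the ETS factors, the interval lay above this share, and for none below. Among 27 ETS genes 5 had SBNO1-only peaks (18.5%, interval 6.30% to 38.1%), namely ETV4, ETV3, ETV2, ETV6 and ELF2 with 7 peaks. The peak at ETV3 (score 874) covered the canonical TSS with TAF4 293222 bp away, and the gene had no TAF4 promoter peak. ETV2 (score 845) had none either, while ETV4, ETV6 (score 644) and ELF2 (score 483) did. Of the 7 peaks, 2 covered a TSS, compared with 59.1% of all SBNO1-only peaks, and 3 lay within 1 kb of a canonical TSS. ETV4 alone held 3 of the 7. These 5 genes are few, and the list was not tested. The 25 intervals were not corrected for their number, and the lists were chosen with earlier results known.

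**Figure D3:**
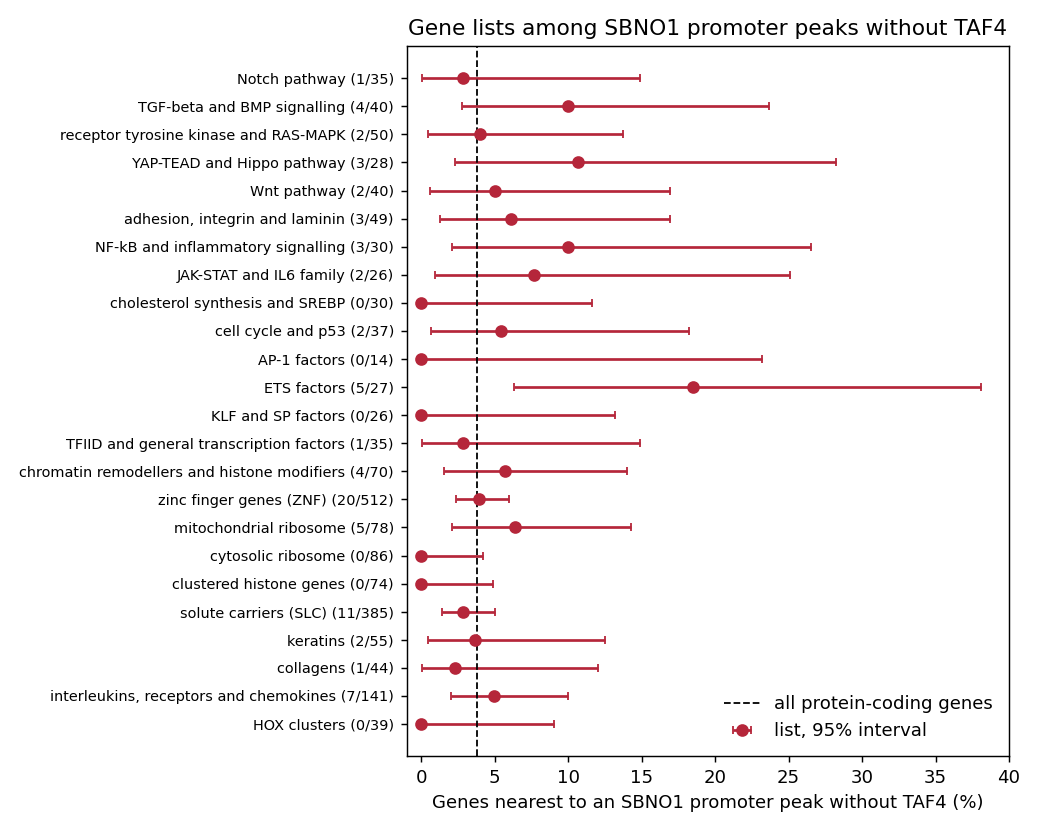
Share of the annotated genes of each list shown (%) that were the nearest gene of an SBNO1-only promoter peak, with exact 95% intervals as error bars. The line marks the 3.78% of all protein-coding genes, and the interval of the ETS factors (18.5%, 6.30% to 38.1%) lies to its right.

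The signalling lists had between 1 and 7 genes with SBNO1-only peaks, and all their intervals included the 3.78%. Among YAP, TEAD and Hippo genes 3 of 28 (10.7%, interval 2.27% to 28.2%) had one. The coactivator YAP1 (score 1000) and the kinase LATS2 (score 761) had it over the canonical TSS, and VGLL4 (score 1000) at an alternative start. TAF4 lay 1594 bp from the YAP1 peak and 78455 bp from the LATS2 peak, and LATS2 had no TAF4 promoter peak. Of 40 TGF-beta and BMP genes 4 did (interval 2.79% to 23.7%): TGIF2, SMAD3, ID1 and INHBA with scores from 568 to 666. TGIF2, a corepressor, had no TAF4 promoter peak, and the other genes had one.

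In the Notch pathway, 1 of 35 genes was reached, the glycosyltransferase LFNG at an alternative start (score 577), and it had a TAF4 promoter peak too. Wnt genes numbered 2 of 40, with the receptors FZD2 (score 659) and LRP6 (score 391), and receptor tyrosine kinase and RAS genes 2 of 50, with EPHA1 (score 965) and IGF1R (score 620). NF-kB genes were 3 of 30 (interval 2.11% to 26.5%), among them the adaptor TRAF2 (score 620) and the inhibitor of apoptosis BIRC2 (score 533). JAK-STAT genes were 2 of 26, with STAT6 (score 665) and the receptor IL6R (score 599). Cell cycle genes were 2 of 37, with cyclin CCNA2 (score 864) and the tumour suppressor RB1 (score 562), both covering the canonical TSS without TAF4 at the gene. Interleukin and chemokine genes were 7 of 141 (4.96%, interval 2.02% to 9.96%), led by CXCL16 (score 1000). Of these 7, 4 had no TAF4 promoter peak, namely CXCL16, IL24, IL22RA1 and CCR3, beside 73.0% of all genes of SBNO1-only peaks.

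Of 49 adhesion genes 3 had such peaks (6.12%, interval 1.28% to 16.9%) and of 55 keratins 2 (3.64%, interval 0.443% to 12.5%), both near the 3.78% of all genes. The adhesion genes JUP, OCLN and LAMB3 all had TAF4 within 1 kb of the SBNO1-only peak and thus lay beside a TAF4 promoter. KRT8, a keratin of simple epithelia, had a narrow intronic peak of 190 bp (score 1000), with TAF4 1931 bp away, and KRT80 (score 677) had no TAF4 promoter peak. Of the biliary markers, EPCAM, an epithelial surface protein, had a peak of 370 bp with a score of 548, whose edge was 17 bp from the canonical TSS and 23692 bp from TAF4, and the gene had a TAF4 peak at another start.

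The larger gene families had shares whose intervals all included that of all genes. Among 512 zinc finger (ZNF) genes 20 had one (3.91%, interval 2.40% to 5.97%), close to the 3.78% of all genes. In this family 17 of 20 peaks covered a TSS and 18 of 20 genes had no TAF4 promoter peak. Over all SBNO1-only peaks 59.1% covered a TSS, and 73.0% of their genes had no TAF4 promoter peak. The lack of TAF4 goes with the choice of the peaks, and the family was not tested against these shares. Examples are ZNF226, ZNF346 and ZNF302 with scores of 1000, and ZNF281 with 865. Mitochondrial ribosomal genes were 5 of 78 (6.41%, interval 2.11% to 14.3%), namely MRPS21, MRPL42, MRPL35, MRPL53 and MRPL54. All 5 peaks covered the canonical TSS of a gene without TAF4. The canonical TSS was covered by 320 of all 775 SBNO1-only peaks, and these 5 genes are few. Of the 86 cytosolic ribosomal genes none did (interval 0% to 4.2%), although 75 had an SBNO1 and 80 a TAF4 promoter peak. The 74 histone genes had none (interval 0% to 4.86%), with 40 and 52, respectively.

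Lists without any SBNO1-only peak numbered 6. Besides the cytosolic ribosomal and histone genes they were the AP-1 factor genes (0 of 14, 10 with an SBNO1 promoter peak), the KLF and SP genes (0 of 26, 6 with one), cholesterol synthesis (0 of 30, 15 with one) and the HOX genes (0 of 39). Of general transcription factor genes 1 of 35 had one, GTF2F1 of TFIIF (score 758). Chromatin remodellers and modifiers were 4 of 70, with SMARCE1 (score 786) and SMARCA2 (score 744) of the SWI/SNF complex, CHD9 and KDM4C. Solute carriers were 11 of 385 (2.86%, interval 1.43% to 5.05%) and collagens 1 of 44 (COL7A1, score 724).

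SBNO1-only peaks were found on 23 chromosomes. The share of SBNO1 promoter peaks without TAF4 ran from 9.88% on chromosome X (8 of 81) to 26.0% on chromosome 22 (19 of 73) among chromosomes with such peaks. The interval of every chromosome included the 17.0% of all.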

How the data were processed

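Immunoprecipitates from HuCCT1 cells had been sequenced by the authors as 3 libraries with short single-end reads. Reads were trimmed with ktrim and aligned to GRCh38.p14 with bowtie2 (version 2.5.4 per the submitters' processing notes). The methods of the study name normR as peak caller and the processing notes name Genrich 0.6.1. Which of them made the deposited lists, its threshold, the handling of duplicates and any use of IgG as control are not given in the sources used here. In all 3 lists the product of score and width divided by 1000 ended at about 200 among peaks below the cap. The study gives a larger share of SBNO1 peaks within 1 kb of a TSS than the 29.7% found here. The peaks it counted may therefore not be those of the deposited list. The deposited files hold chromosome, start, end and the authors' score, a whole number capped at 1000. The score was used within a list only.

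Distances were measured from the peak edge to 78567 TSS of GENCODE 44, overlap required 1 bp, and coordinates are 1-based. A peak was assigned to its nearest TSS. GC content, the ratio of observed to expected CpG and motifs were read from GRCh38 in 200 bp at the peak centre. The background of motifs was weighted to the GC content of the peaks in steps of 2 percentage points, each with 20 or more background windows. Intervals are exact 95% Clopper-Pearson intervals and cover counting error only, since peaks and genes are not replicates. Python 3.11.15, numpy 2.4.6, pandas 2.3.3, scipy 1.17.1 and pysam 0.24.0 were used, and the functions were tested on simulated data.

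The peaks and gene lists were chosen with earlier results of these data known. Named genes are the 10 highest-scoring peaks (ties by width), the 10 highest at a covered canonical TSS without TAF4 at the gene, the 5 highest with AP-1, the 5 genes with several peaks and the highest score, and members of the lists, and 1 gene and 1 list are not reported here. ENSG00000289694, RALB, RFX7 and POLG2 show the limits of the selection. The classes of CpG, area, score and TSS and the comparisons within them were set after the peaks had been seen. Alternatives were other distances, the canonical TSS only, peak centres, score limits, IgG peaks kept, no TAF4 within 1 kb, a wider window and an area limit.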

Additional observations from a re-analysis of the deposited data

How the results depend on the processing

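No paired analysis was possible because the groups held single libraries. Measured from the peak centre or with IgG peaks kept, no main value moved beyond its interval or, for the number of peaks, by over 1.5 times. Within 3 kb of a TSS there were 1185 SBNO1-only peaks (21.0% of SBNO1 promoter peaks), 38.6% covered a TSS, 65.3% of genes lacked TAF4, the median GC content was 54.5%, and AP-1, KLF/SP and ETS motifs were in 20.9%, 28.3% and 14.4%. With canonical TSS only, the share without TAF4 was 12.8%, genes without TAF4 85.4%, GC 61.0%, AP-1 9.33%, KLF/SP 43.7% and ETS 25%. Requiring no TAF4 peak within 1 kb gave a share of 13.9%, with 64.7% covering a TSS and 83.9% of genes without TAF4. SBNO1 peaks at or above the median score left 266 peaks (11.7%), with 79.8% of genes without TAF4, a median score of 1000, GC 60.0%, AP-1 17.3% and ETS 24.4%. TAF4 peaks at or above their median score raised the number to 2143 (44.7%), of which 71.4% covered a TSS, with 85.7% of genes without TAF4, a median score of 759, GC 61.5%, AP-1 9.43%, KLF/SP 48.0%, ETS 22.5% and NFY 26.0%. In windows of 400 bp AP-1 was at 19.1%, KLF/SP at 51.0%, ETS at 28.1% and NFY at 38.1%. An area of 300 or more, chosen after the data were seen, left 150 peaks (5.86%), with 65.3% covering a TSS, 78.2% of genes without TAF4, a median score of 760, GC 55.0%, KLF/SP 30.0%, ETS 16.0% and NFY 28.7%. With capped scores taken as 1000, this area limit also left out capped peaks under 300 bp wide. The ratio of the KLF/SP share to its background turned from 0.845 to 1.14 with GC weighting. The causes of these moves were not tested. Depth is unknown, and the lists hold no signal where no peak was called.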
